A study of Mus musculus with 12 samples.

Results

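The genes of DNA replication and S phase were followed through 12 RNA-seq libraries of mouse embryonic stem cells. The set was a list of 45 gene names covering origin licensing, helicase activation, the polymerases with their clamp and loader, single-strand binding, the joining of Okazaki fragments, nucleotide supply, chromatin assembly and the start of S phase. A member was the locus of the expression table with that name, the locus with the highest mean where a name had several, and its mean had to reach 1 FPKM over the 12 libraries. Of the 45 names, 44 were found and all 44 passed, out of 13528 named genes in the table. Orc2 was not analysed here. All 44 also passed the filter on low values (a level of 1 FPKM or more in 2 or more libraries) and were among the 12838 genes tested. FPKM, the unit of the deposited table, scales the fragments of a gene to its transcript length and to the mapped fragments of the library.

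The strain was 129SvEv throughout. Lines 18 and 26 were wild type (WT), and lines 25 and 39 were Arkadia -/- (called null here), so there were 4 lines in all. Arkadia, encoded by Rnf111, is a ubiquitin ligase that acts on inhibitors of SMAD signalling. All lines spent 24 h in N2B27, a serum-free medium, and then 4 h with 10 µM SB431542 (SB), which blocks the receptor kinases for Activin, Nodal and TGFβ. From each line, 1 library was made at that point and 1 each after 3 h and 6 h in fresh N2B27 with 10 ng/ml Activin A, so there were 6 groups of 2 libraries. No group received fresh medium without Activin, so inhibitor removal, medium change, time in culture and Activin cannot be told apart in a comparison with SB. The labels do not say how the lines were derived, nor whether each is 1 clone. With 1 library per line in a group, p-values rest on how far the lines differ, and each line's 3 libraries were counted as independent in the main test.

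A cell copies its genome from origins that are licensed in G1 phase. The origin recognition complex, Cdc6 and Cdt1 load the ring of Mcm proteins onto DNA. Mcm10, Cdc45 and the GINS complex then turn that ring into a moving helicase, and polymerases held by the PCNA clamp copy both strands. Many of these genes are known targets of E2F factors, which are released when cyclin-dependent kinases inactivate the retinoblastoma protein. Embryonic stem cells are known for a short G1 phase and for high levels of cyclin E through the cycle.

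Rnf111 stood at 3.19 to 4.27 FPKM in the 6 WT libraries and at 0.539 to 0.855 in the 6 null libraries, without overlap. All 6 Activin response genes fixed as a check (Lefty1, Lefty2, Nodal, Smad7, Skil and Pmepa1) rose in every comparison of Activin with SB in both genotypes. Of 12 embryonic stem cell markers, 11 were measured and 10 reached 1 FPKM in every library, with Pou5f1 between 562 and 926 FPKM. Klf4 lay below 1 FPKM in every library, at 0.361 to 0.872. Of the lists of other cell types, 8 of 12 fibroblast markers were measured, with summed levels of 16.4 to 27.8 FPKM, 9 of 12 endoderm markers, with 119 to 168, and 8 of 11 trophoblast markers, with 85.4 to 169. Sparc held most of the endoderm sum, Sox17 was listed at 0 in 2 libraries, and no other measured marker was at 0. Summed FPKM was 578104 in the lowest library (WT line 18, SB) and 805752 in the highest (null line 39, 6 h). Read totals are unknown, and relative depth was read from the steps between low FPKM values. It was set to 1 in that highest library, which had the most values at 0 (262) and was taken as the shallowest. In the other libraries it came to 1.22 to 1.81. Because these are bulk libraries, fewer cells in S phase and less RNA per cell cannot be told apart.

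Replication genes were abundant in these cells. The mean level of a member over the 12 libraries ran from 4.44 FPKM (Pole) to 295.7 FPKM (Tyms), with a median of 54.7 FPKM, against a median of 6.52 FPKM for all genes tested. Of the 44 members, 40 reached 10 FPKM. The highest levels per length belonged to Tyms, Rpa3, Dut, Rfc3 and Mcm7, and the lowest to Pole, E2f1, Gins3 and Chaf1a. The levels varied little between libraries: the highest library exceeded the lowest by 1.45-fold in the median member and by at most 2.53-fold, in Ccne2.

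Replication genes differed between Activin and SB by small amounts, and more members were called lower than higher. In the main test the share of members called higher lay near or below that of all genes. After 3 h in WT cells, 12 of 44 members fell and 6 rose, at an adjusted p under 0.05 (limma across all genes). Of all genes tested, 22.5% were called in that comparison, 9.85% lower and 12.6% higher. After 6 h in WT cells, 12 members fell and 3 rose, against 6.34% and 9.6% of all genes and 15.9% called in all. In null cells 7 members fell and 1 rose at 3 h, against 7.14% and 6.49% of all genes and 13.6% called in all. At 6 h in null cells 10 fell and 1 rose, against 5.54% and 7.86% and 13.4% called in all. Changes of members lay between −0.65 and 0.69 on the log2(FPKM + 1) scale over these 4 comparisons. The median change of the members was −0.11, −0.11, −0.16 and −0.12 (WT at 3 h, WT at 6 h, null at 3 h, null at 6 h), where the median of all genes was −0.01, 0.02, −0.01 and 0.01. At an unadjusted p under 0.05, 27, 25, 30 and 26 of the 44 members passed in these comparisons, against 38.6%, 35.1%, 31.7% and 32.5% of all genes. The 3 h and 6 h comparisons of a genotype share their SB libraries, so their values are given side by side only.

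With the cell line as a block, 17 members fell and 14 rose in WT cells at 3 h, 17 and 13 at 6 h, 22 and 9 in null cells at 3 h and 21 and 10 at 6 h. In that fit 37.2%, 33.9%, 29.5% and 31.4% of all genes were called. Under quantile normalization the split was 19 lower and 2 higher in WT cells at 3 h, and 20 and 2 at 6 h, with 24% and 19.5% of all genes called. Without WT line 18, or without WT line 26, no member was called in any of these comparisons, and 0.693% to 3.01% of all genes were. The spread then rested on the null lines alone, and the lone WT line was assumed to vary like the other groups. Leaving out a null line in turn left only the WT lines to set the spread. Without null line 25, 2 members were called in null cells at 3 h and 8 at 6 h, with 3.51% and 11% of all genes called. Without null line 39 these counts were 19 and 18, with 16% and 13.9%. In WT cells, leaving out either null line gave 29 calls at 3 h and 28 at 6 h, with 34% (line 25) or 33.9% (line 39) and 30.4% of all genes called. With only the libraries of the groups compared in the fit, 27 and 25 members were called in WT cells (28.8% and 24.3% of all genes), and none in null cells at 3 h or 6 h (1.36% and 0.981%).

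Direction was shared by the lines for most members. At 3 h, 24 of the 43 members measured in all lines were lower than SB in all 4 lines and 13 were higher, where 29.4% of all genes were lower and 27.2% higher in all 4. At 6 h, 24 of 44 were lower and 14 higher in all 4 lines, against 27.7% and 32.4% of all genes.

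**Figure D1:**
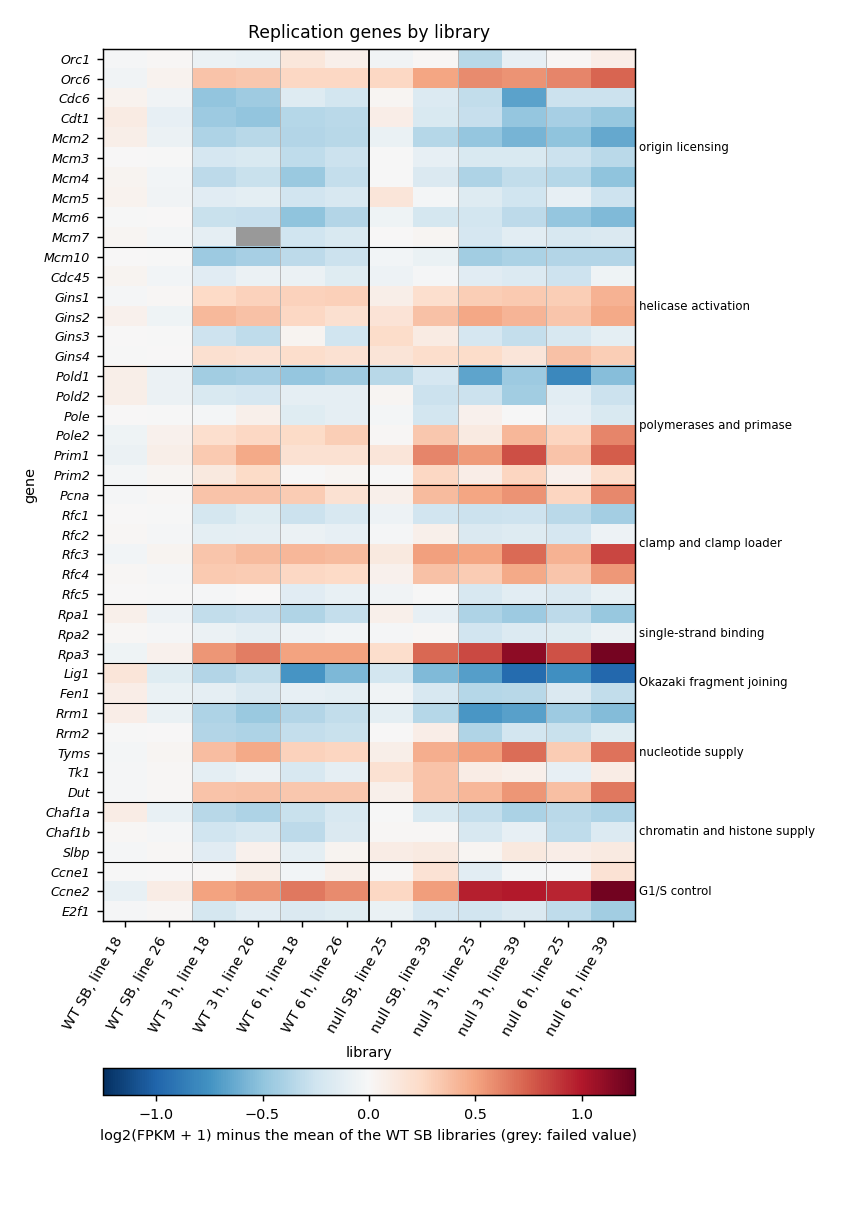
Level of each of the 44 members (rows, grouped by role) in each of the 12 libraries (columns), as the difference of log2(FPKM + 1) from the mean of the WT SB libraries; blue is lower, red is higher and grey is a failed value (Mcm7). Most Mcm genes, Mcm10, Pold1, Rrm1 and Rpa1 are blue in the Activin libraries of both genotypes, while Ccne2, Rpa3, Orc6, Gins1, Gins2 and the group of Tyms, Dut, Rfc3 and Prim1 are red, in null line 39 already in SB.

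**Figure D2:**
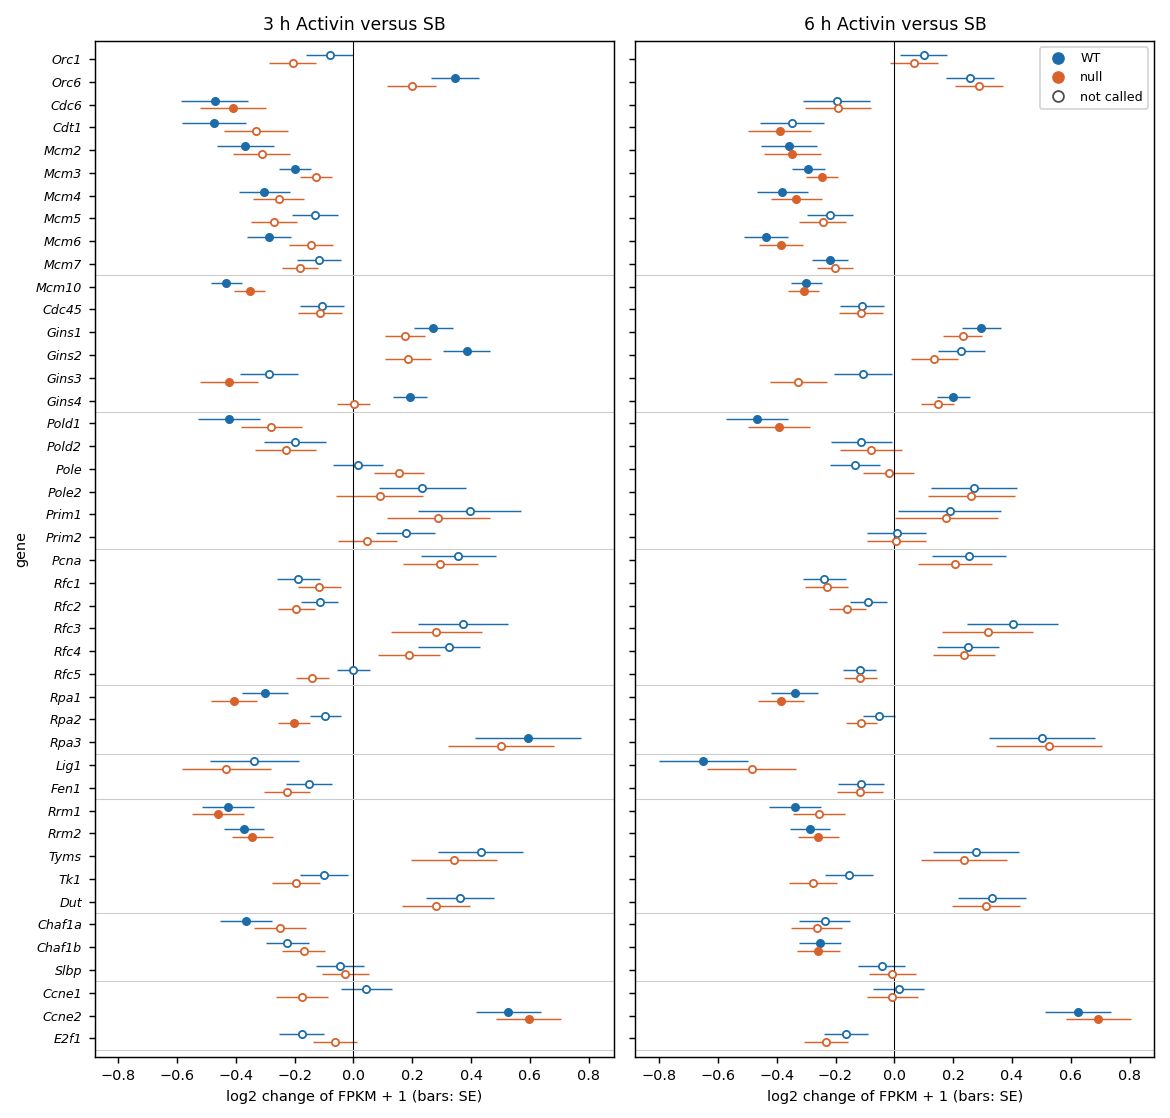
Change of each member between Activin and SB on the log2(FPKM + 1) scale, at 3 h (left) and 6 h (right), for WT (blue) and null (orange) lines; bars are standard errors and filled points passed the adjusted threshold. The points of WT and null lie close to each other, with Ccne2 highest at 6 h and Lig1 lowest.

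Among the 10 measured licensing genes, 6 fell and 1 rose in WT cells at 3 h, and 5 fell at 6 h. In null cells Cdc6 alone fell at 3 h, and 5 fell at 6 h. Cdc6, which brings the Mcm ring to the origin (chromosome 11, 98907774 to 98923905, mm10), stood at 27.8 and 26.0 FPKM in WT lines 18 and 26 in SB, at 18.8 and 19.4 at 3 h and at 24.0 and 22.7 at 6 h. Both 3 h values lay below all WT values of SB and 6 h. Null lines 25 and 39 had 27.3 and 23.7 FPKM in SB, 21.5 and 16.6 at 3 h and 22.2 and 22.2 at 6 h. The 3 h fall was −0.47 ± 0.11 in WT (log2 change ± SE; adjusted p = 0.0221) and −0.41 ± 0.11 in null cells (adjusted p = 0.0453). At 6 h the change of Cdc6 was −0.20 and −0.19, with adjusted p of 0.247 and 0.269.

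Cdt1, the other loader of the Mcm ring, stood at 16.5 and 14.2 FPKM in WT SB, 10.9 and 10.6 at 3 h and 11.7 and 11.9 at 6 h. Null values were 16.3 and 13.3 FPKM in SB, 12.3 and 10.7 at 3 h and 11.3 and 10.7 at 6 h. The SB values were the highest within each genotype, with no overlap. Cdt1 fell by 0.47 in WT cells at 3 h (adjusted p = 0.0188) and by 0.39 in null cells at 6 h (adjusted p = 0.0472). The other pair of values, WT at 6 h and null at 3 h, gave −0.35 and −0.33 with adjusted p of 0.0596 and 0.075, and of 0.0141 and 0.0195 with the line as a block.

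The 6 Mcm genes encode the subunits of the replicative helicase ring. Mcm6 (chromosome 1, 128331581 to 128359708) stood at 65.5 and 66.3 FPKM in WT SB, 54.1 and 53.7 at 3 h and 46.2 and 50.9 at 6 h. Among null libraries the values were 63.5 and 56.5 FPKM in SB, 56.0 and 52.2 at 3 h and 46.7 and 44.6 at 6 h. The levels were lowest at 6 h in each line, and the null SB and 3 h values nearly met. Mcm6 fell by 0.29 in WT cells at 3 h (adjusted p = 0.0293), by 0.44 at 6 h (adjusted p = 0.00738) and by 0.39 in null cells at 6 h (adjusted p = 0.0137). In null cells at 3 h its change was −0.15 ± 0.07 (adjusted p = 0.217).

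Mcm2 stood at 65.9 and 59.7 FPKM in WT SB, at 47.7 and 49.0 at 3 h and at 48.4 and 49.1 at 6 h. Mcm2, Mcm3 and Mcm4 fell in WT cells at both times, by 0.37, 0.20 and 0.30 at 3 h and by 0.36, 0.29 and 0.38 at 6 h. In null cells these 3 genes fell at 6 h, by 0.35, 0.25 and 0.33, and at 3 h their changes were −0.31, −0.13 and −0.25 with adjusted p of 0.0645, 0.149 and 0.0844 (0.0129, 0.0471 and 0.0525 with the line as a block). Mcm5 passed in no comparison, with changes between −0.13 and −0.27. With the line as a block its adjusted p was 0.0557 in WT cells at 3 h, 0.0108 in WT cells at 6 h, and 0.00685 and 0.00819 in null cells. Mcm7, the most abundant of the ring, stood at 220 and 214 FPKM in WT SB and at 182 and 190 at 6 h, a fall of 0.22 (adjusted p = 0.0478). Its value in WT line 26 at 3 h carried a failure flag and was taken as missing, so that group held 1 library, at 199.9 FPKM, and gave −0.12 with adjusted p = 0.29. The null changes of Mcm7 were −0.18 and −0.20, with adjusted p of 0.0863 and 0.0673, and of 0.0288 and 0.0203 with the block. With the failed value kept as deposited, 11 rather than 12 members fell in WT cells at 6 h.

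Orc6 rose in WT cells at 3 h, where Mcm2, Mcm3, Mcm4 and Mcm6 fell, and Orc1 was not called. The gene makes up 0.18 of the length of the Orc6 locus, so its value can hold neighbouring sequence. Orc6 stood at 119 and 126 FPKM in WT SB, at 157 and 155 at 3 h and at 146 and 147 at 6 h. Both Activin times lay above both SB values. It rose by 0.35 at 3 h (adjusted p = 0.0222), while 6 h gave 0.26 (adjusted p = 0.0652, and 0.0223 with the line as a block). In null cells its changes were 0.20 at 3 h and 0.29 at 6 h (adjusted p of 0.14 and 0.052, and 0.0573 and 0.0165 with the block). Orc1, the largest subunit, changed by −0.08 and 0.10 in WT cells and by −0.21 and 0.07 in null cells, and the lowest adjusted p was 0.12, in null cells at 3 h (0.0391 with the block).

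Mcm10 and the GINS genes act after licensing, and in WT cells at 3 h Mcm10 fell while 3 of 4 GINS genes rose. Mcm10, which takes part in starting the loaded helicase (chromosome 2, 4989691 to 5012853), stood at 31.3 and 31.1 FPKM in WT SB, at 22.5 and 23.2 at 3 h and at 24.6 and 25.8 at 6 h. Levels in the null lines were 30.6 and 29.3 FPKM in SB, 22.9 and 23.5 at 3 h and 23.9 and 24.0 at 6 h. All 8 Activin values lay below all 4 SB values, and the lines of a group were close to each other. Mcm10 fell by 0.43, 0.30, 0.35 and 0.31 (WT at 3 h and 6 h, null at 3 h and 6 h), with adjusted p of 0.00114, 0.00845, 0.00474 and 0.00772. Cdc45, which rides with the helicase, changed by −0.11 in each of the 4 comparisons, with adjusted p between 0.317 and 0.33.

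GINS is a ring of 4 subunits that joins Cdc45 to the Mcm helicase. In WT cells at 3 h Gins1, Gins2 and Gins4 rose, by 0.27, 0.38 and 0.19. Gins2 stood at 36.9 and 34.1 FPKM in WT SB, 47.2 and 46.1 at 3 h and 42.6 and 40.9 at 6 h, so the groups of WT did not overlap. Lines 25 and 39 stood at 40.1 and 46.2 FPKM in SB, 50.1 and 48.1 at 3 h and 45.4 and 49.5 at 6 h, and SB and 6 h overlapped. Gins1 and Gins4 also rose in WT cells at 6 h, by 0.29 and 0.20. No GINS gene rose in null cells; the changes of Gins1, Gins2 and Gins4 were 0.17, 0.19 and 0.00 at 3 h and 0.23, 0.14 and 0.15 at 6 h. With the line as a block, Gins1 in null cells at both times, Gins4 in null cells at 6 h and Gins2 in WT cells at 6 h were also called higher, with adjusted p of 0.0215, 0.00772, 0.0405 and 0.0324. Under quantile normalization Gins4 lay at −0.07 and −0.02 in WT cells, not past the threshold. Gins3 fell in null cells at 3 h, by 0.42 (adjusted p = 0.0256), and stood at −0.29 in WT cells (adjusted p = 0.066, and 0.0419 with the block). At 6 h in null cells it stood at −0.33 (adjusted p = 0.0601, and 0.0321 with the block).

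The promoters shown are of genes that fell in the same comparison, WT cells at 3 h. E2F factors and the CCAAT-binding factor are known regulators of replication genes. Called members that held E2F letters were placed first, and the others followed by size of change. Windows with too short a stretch outside exons were passed over. Mcm6 was therefore shown because it held E2F letters, and not for the size of its fall. RefSeq windows of GRCm38.p6 were found for 36 of the 44 members, 41 windows in all, and the 250 bases before each start were searched on both strands. The E2F letters were TTTCCCGC, TTTCGCGC, TTTGCCGC and TTTGGCGC, and matches on opposite strands can overlap. At least 1 was held by 7 of 41 member windows (17.1%), against 1.9% of the 32851 windows of all genes. CCAAT was held by 56.1% of member windows and 33.8% of all windows. Among members with a window, E2F letters stood before 2 of 11 that fell in WT cells at 3 h, 0 of 2 that rose and 5 of 23 not called. The stretches below lie before the RefSeq start and outside the deposited locus, on the strand of the gene. Capitals mark E2F letters or CCAAT on either strand, which read ATTGG when on the other strand.
Mcm6, chr1:128359709-128359955, minus strand: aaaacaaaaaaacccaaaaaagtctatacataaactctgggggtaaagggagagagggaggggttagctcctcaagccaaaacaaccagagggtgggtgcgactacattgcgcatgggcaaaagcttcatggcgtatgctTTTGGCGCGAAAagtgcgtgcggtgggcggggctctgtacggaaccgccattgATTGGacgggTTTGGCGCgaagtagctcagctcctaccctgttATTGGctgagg
Mcm10, chr2:5012854-5013041, minus strand: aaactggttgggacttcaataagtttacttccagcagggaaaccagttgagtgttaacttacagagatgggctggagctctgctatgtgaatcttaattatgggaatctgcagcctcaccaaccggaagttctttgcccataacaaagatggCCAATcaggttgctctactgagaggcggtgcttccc
Rrm1, chr7:102441445-102441676, plus strand: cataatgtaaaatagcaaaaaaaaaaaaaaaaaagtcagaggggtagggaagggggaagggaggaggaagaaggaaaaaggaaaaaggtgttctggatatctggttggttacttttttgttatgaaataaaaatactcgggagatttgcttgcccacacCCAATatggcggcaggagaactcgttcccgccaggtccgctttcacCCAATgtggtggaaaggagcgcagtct
The Mcm6 stretch held 3 E2F matches, beginning 110, 106 and 47 bases before the start, of which the first 2 share letters, and CCAAT at 57 and 14. The Mcm10 stretch, which ends 63 bases before the start, held CCAAT at 98, and that of Rrm1 held it at 91 and 45. All 250 bases searched for Mcm10 held 2 CCAAT, of which 1 lies outside the stretch shown. A match is a run of letters and does not show that a factor was bound.

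**Figure D3:**
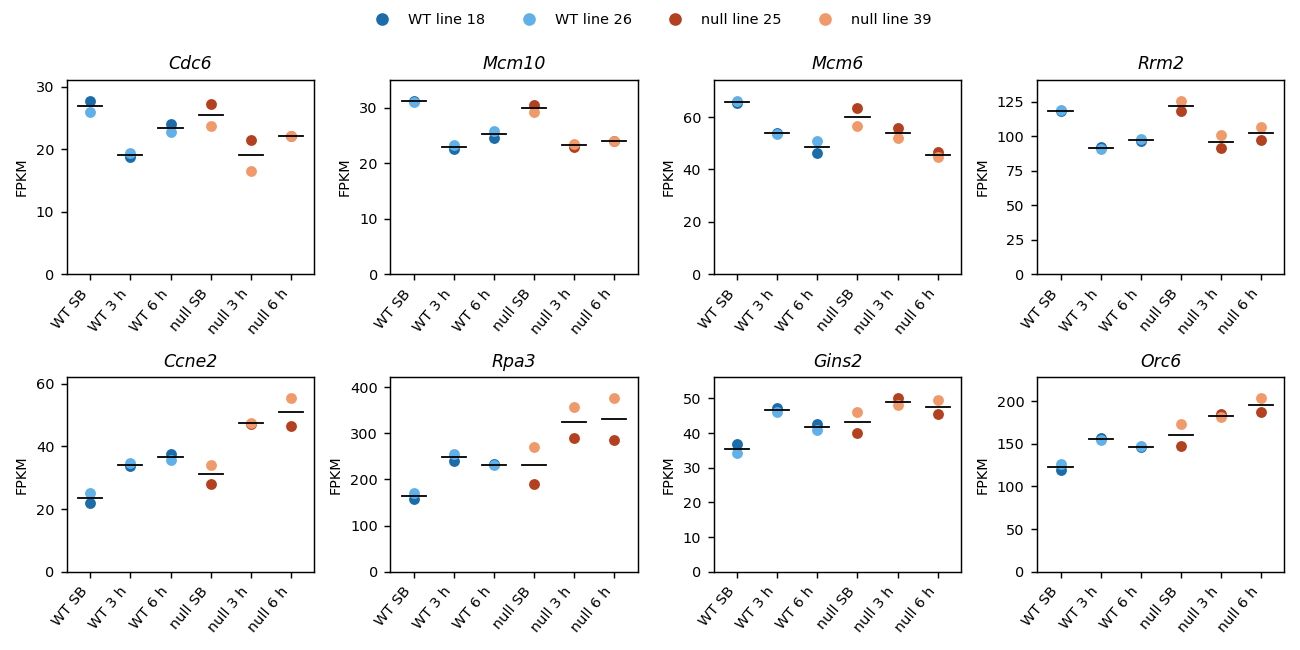
FPKM of 8 members (one panel each, linear axes from 0) in the 6 groups; points are libraries coloured by cell line and lines are group means. Cdc6, Mcm10, Mcm6 and Rrm2 lie lower in Activin than in SB, and Ccne2, Rpa3, Gins2 and Orc6 higher, with null line 39 above null line 25 in SB for the lower row of panels.

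The polymerase and primase genes held 1 called member. Pold1, the catalytic subunit of the lagging-strand polymerase delta (chromosome 7, 44532743 to 44548962), stood at 33.1 and 29.9 FPKM in WT SB, 23.0 and 23.4 at 3 h and 22.1 and 22.8 at 6 h. The null lines gave 24.6 and 27.05 FPKM in SB, 19.5 and 22.7 at 3 h and 17.6 and 21.4 at 6 h. Each line was highest in SB. Pold1 fell by 0.42 and 0.47 in WT cells (adjusted p of 0.0251 and 0.0214) and by 0.39 in null cells at 6 h (adjusted p = 0.0434), and its change in null cells at 3 h was −0.28 (adjusted p = 0.109, and 0.0158 with the block). With trends in transcript length and GC content removed, Pold1 stood at −0.35 in WT cells at 3 h with adjusted p = 0.106.

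Pole, the catalytic subunit of polymerase epsilon, changed by 0.02 and −0.13 in WT cells and by 0.15 and −0.02 in null cells, none past the threshold. Prim1, the catalytic subunit of primase, stood at 107 and 119 FPKM in WT SB, at 141 and 157 at 3 h and at 129 and 129 at 6 h. Null lines 25 and 39 had 125 and 173 FPKM in SB, 163 and 198 at 3 h and 145 and 191 at 6 h. Line 39 was higher than line 25 in every null group, and SB of line 39 exceeded both other times of line 25. The 3 h change of Prim1 was 0.40 ± 0.17 in WT and 0.29 ± 0.17 in null cells (adjusted p of 0.131 and 0.291, and of 0.00352 and 0.0145 with the line as a block). Pole2 gave 0.23 in WT cells at 3 h and 0.27 at 6 h, with adjusted p of 0.271 and 0.223, and 0.00315 and 0.00243 with the block. Pold2 and Prim2, further subunits of delta and primase, gave −0.20 and 0.18 in WT cells at 3 h, with adjusted p of 0.197 and 0.223, and of 0.0323 and 0.017 with the block.

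The clamp Pcna and the clamp loader genes held no member called in the 4 comparisons, although 4 of 6 had an unadjusted p under 0.05 in WT cells at 3 h (38.6% of all genes). Pcna, the ring that holds polymerases on DNA, stood at 147 and 151 FPKM in WT SB, at 192 and 191 at 3 h and at 186 and 171 at 6 h. Lines 25 and 39 stood at 156 and 197 FPKM in SB, 211 and 220 at 3 h and 181 and 227 at 6 h. Both WT Activin times lay above WT SB, and SB of null line 39 overlapped the Activin range of line 25. The 3 h change of Pcna was 0.36 in WT and 0.30 in null cells (adjusted p of 0.0741 and 0.151, and 0.0118 and 0.0286 with the block). Rfc3 and Rfc4, small subunits of the loader, stood at 0.37 and 0.32 in WT cells at 3 h, with adjusted p of 0.11 and 0.0562, and of 0.00333 and 0.00269 with the block. Rfc1, the large subunit, and Rfc2 lay at −0.19 and −0.12 there, and Rfc5 at 0.00. With the line as a block, Rfc3 was called higher in all 4 comparisons, as was Rfc4. Rfc1 was called lower in that fit in 3 of the 4, all but null cells at 3 h (adjusted p = 0.177).

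The subunits of replication protein A, which coats single-stranded DNA as a trimer, went in opposite directions in WT cells at 3 h, where Rpa1 fell and Rpa3 rose. Rpa1, the large subunit, stood at 86.8 and 79.9 FPKM in WT SB, 67.1 and 67.9 at 3 h and 64.0 and 67.4 at 6 h. Null values were 87.1 and 77.7 FPKM in SB, 63.3 and 60.4 at 3 h and 66.0 and 59.7 at 6 h. No Activin value reached an SB value. Rpa1 fell in all 4 comparisons, by 0.30 and 0.34 in WT and by 0.41 and 0.39 in null cells. Rpa2 fell in null cells at 3 h, by 0.20 (adjusted p = 0.0404), and lay between −0.05 and −0.11 in the other comparisons.

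Rpa3, the small subunit, has the shortest transcript of the members (670 nt). It stood at 157 and 170 FPKM in WT SB, at 241 and 255 at 3 h and at 233 and 232 at 6 h. Null lines 25 and 39 had 191 and 270 FPKM in SB, 291 and 358 at 3 h and 286 and 376 at 6 h. Every line had a higher value at both Activin times than in SB, but SB of line 39 came close to Activin of line 25. Rpa3 rose by 0.59 ± 0.18 in WT cells at 3 h (adjusted p = 0.0458). The other comparisons gave 0.50, 0.50 and 0.53 (WT at 6 h, null at 3 h and 6 h; adjusted p of 0.0866, 0.0954 and 0.0846, and of 0.00177, 0.00291 and 0.00171 with the block). With length and GC trends removed its change in WT cells at 3 h was 0.23 (adjusted p = 0.0916).

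Of the genes that finish the lagging strand, Lig1, the DNA ligase that seals Okazaki fragments, fell in WT cells at 6 h. Its deposited locus (chromosome 7, 13276912 to 13277468) covers only 0.00545 of the annotated gene, and the gene makes up 0.334 of that locus, so its value describes that stretch alone, with sequence outside the gene. It stood at 83.1 and 67.2 FPKM in WT SB, 57.6 and 60.3 at 3 h and 44.4 and 50.3 at 6 h, with no overlap between these groups. Among null libraries the values were 63.7 and 50.5 FPKM in SB, 46.1 and 37.8 at 3 h and 43.5 and 37.2 at 6 h. The WT fall at 6 h was 0.65 (adjusted p = 0.0241), and the null change was −0.48 (adjusted p = 0.066, and 0.0163 with the block). At 3 h Lig1 stood at −0.34 in WT and −0.43 in null cells, with adjusted p of 0.136 and 0.0893, and of 0.0461 and 0.0249 with the block. Fen1, the flap nuclease of the same step, lay between −0.11 and −0.23 and passed in no comparison (0.0226 with the block in null cells at 3 h).

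Of the 5 nucleotide supply genes, Rrm1 and Rrm2 were called, both lower. They encode the subunits of ribonucleotide reductase, which makes deoxynucleotides. Rrm1 (chromosome 7, 102441677 to 102469243) stood at 70.4 and 62.7 FPKM in WT SB, 50.5 and 47.9 at 3 h and 51.2 and 53.5 at 6 h. Levels in the null lines were 60.8 and 51.6 FPKM in SB, 39.6 and 41.2 at 3 h and 48.1 and 45.3 at 6 h. The 3 h values were the lowest of each genotype. Rrm1 fell by 0.43 and 0.34 in WT cells and by 0.46 in null cells at 3 h (adjusted p = 0.0137); null cells at 6 h gave −0.26 (adjusted p = 0.0867, and 0.0484 with the block).

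Rrm2 stood at 118 and 119 FPKM in WT SB, 92.0 and 90.8 at 3 h and 96.4 and 98.1 at 6 h. The null lines gave 119 and 126 FPKM in SB, 91.6 and 101 at 3 h and 97.8 and 107 at 6 h. Every Activin library lay below every SB library. Rrm2 fell in all 4 comparisons, by 0.37, 0.29, 0.34 and 0.26, with adjusted p of 0.00853, 0.0271, 0.0155 and 0.0425.

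Tyms and Dut make and protect the thymidine pool, and neither passed the threshold. Tyms, thymidylate synthase and the most abundant member, stood at 226 and 234 FPKM in WT SB, 301 and 320 at 3 h and 280 and 277 at 6 h. Lines 25 and 39 stood at 241 and 315 FPKM in SB, 327 and 374 at 3 h and 287 and 367 at 6 h. WT groups did not overlap, while SB of null line 39 lay above 6 h of line 25. The 3 h changes of Tyms were 0.43 in WT and 0.34 in null cells (adjusted p of 0.0638 and 0.147, and of 0.00219 and 0.00736 with the block). Dut, the dUTPase, gave 0.36 and 0.28 at 3 h (adjusted p of 0.0521 and 0.134, and of 0.00209 and 0.00756 with the block). Tk1, thymidine kinase, lay between −0.10 and −0.28, and was called lower in null cells with the block (adjusted p of 0.0483 and 0.015).

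Chaf1a and Chaf1b encode subunits of chromatin assembly factor 1, which places histones behind the fork. Chaf1a stood at 11.7 and 10.1 FPKM in WT SB and at 8.37 and 8.07 at 3 h, a fall of 0.37 (adjusted p = 0.0223). Its other changes lay between −0.24 and −0.26, with adjusted p from 0.0788 to 0.0943, and from 0.0373 to 0.0488 with the block. Chaf1b stood at 37.4 and 36.7 FPKM in WT SB and 29.4 and 32.6 at 6 h, a fall of 0.25 (adjusted p = 0.0475). Null values were 37.5 and 37.5 FPKM in SB and 29.6 and 32.8 at 6 h, a fall of 0.26 (adjusted p = 0.0492). Slbp, which binds histone mRNA, changed by −0.05, −0.04, −0.03 and −0.01.

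Ccne2, 1 of 2 E-type cyclins, was the only member called higher in all 4 comparisons. It stood at 21.9 and 25.0 FPKM in WT SB, 33.6 and 34.7 at 3 h and 37.5 and 35.7 at 6 h. Null lines 25 and 39 had 28.1 and 34.1 FPKM in SB, 47.0 and 47.6 at 3 h and 46.4 and 55.4 at 6 h. SB was the lowest group within each genotype, and SB of null line 39 lay within the WT 3 h range. Ccne2 rose by 0.53 ± 0.11 and 0.62 ± 0.11 in WT cells (adjusted p of 0.0142 and 0.00892) and by 0.60 ± 0.11 and 0.69 ± 0.11 in null cells (adjusted p of 0.0125 and 0.00575). Ccne1, the other E-type cyclin, stood at 124 and 125 FPKM in WT SB and 126 and 131 at 3 h, and its changes were 0.04, 0.01, −0.17 and −0.01 (null at 3 h: adjusted p = 0.205, and 0.0186 with the block). E2f1, an activator of S phase genes, stood at 6.64 and 6.75 FPKM in WT SB and 5.62 and 6.01 at 3 h, and its changes of −0.18, −0.16, −0.06 and −0.23 did not pass (null at 6 h: adjusted p = 0.0744, and 0.0411 with the block).

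Several loci of the table reach beyond the named gene, among them several genes that were called. The gene made up 0.213 of the length of the locus for Ccne2, 0.18 for Orc6 and 0.106 for Gins2, and 0.334 for Lig1, 0.346 for Mcm7, 0.52 for Tk1, 0.573 for Fen1, 0.586 for Pcna, 0.665 for Rfc4 and 0.672 for Orc1. The part of neighbouring sequence in these values was not tested.

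The direction of members moved with transcript length and GC content. In WT cells at 3 h, the 22 members with the shorter transcripts (670 to 2519 nt) held 4 that rose and 2 that fell, with a median change of 0.11, and the 22 longer ones (2559 to 7163 nt) held 2 that rose and 10 that fell, with a median of −0.19. Over all genes, 17.2% of those under 2539 nt rose and 6.6% fell, against 8.65% and 12.8% of longer ones. Across genes, Spearman's rho between change and length was −0.51 for the 44 members and −0.24 for all genes tested; these genes share libraries and are not independent. At 6 h rho was −0.60 for the members in WT cells, and in null cells −0.48 at 3 h and −0.56 at 6 h. All genes tested gave −0.24, −0.10 and −0.18 in the same order. The rank correlation with transcript GC content was −0.43 and −0.45 for the members in WT cells at 3 h and 6 h, and −0.40 and −0.51 in null cells. For all genes it was −0.10 and −0.15 in WT cells, and −0.05 and −0.23 in null cells. With smooth trends in length and GC removed from each library, 13 members fell and 3 rose in WT cells at 3 h and 13 and 1 at 6 h, with 24.6% and 18.4% of all genes called. In null cells the counts were 11 and 1 at 3 h and 15 and 1 at 6 h, with 18.8% and 14.5% called. Ccne2 was called higher in each of these, at 0.39, 0.44, 0.51 and 0.45, and Cdt1, Mcm2, Mcm10, Rpa1, Rrm1 and Rrm2 were called lower in each. In WT cells at 3 h Gins1, Gins4 and Rpa3 were not called after this step, with changes of 0.06, 0.06 and 0.23, while Gins2 and Orc6 stood at 0.46 and 0.19 and were called. The share of ribosomal protein genes, which have short transcripts, also moved with Activin, from 16.1 and 15.4% of summed FPKM in WT SB to 19.0 and 18.4% at 3 h. Its part in these results was not tested.

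**Figure D4:**
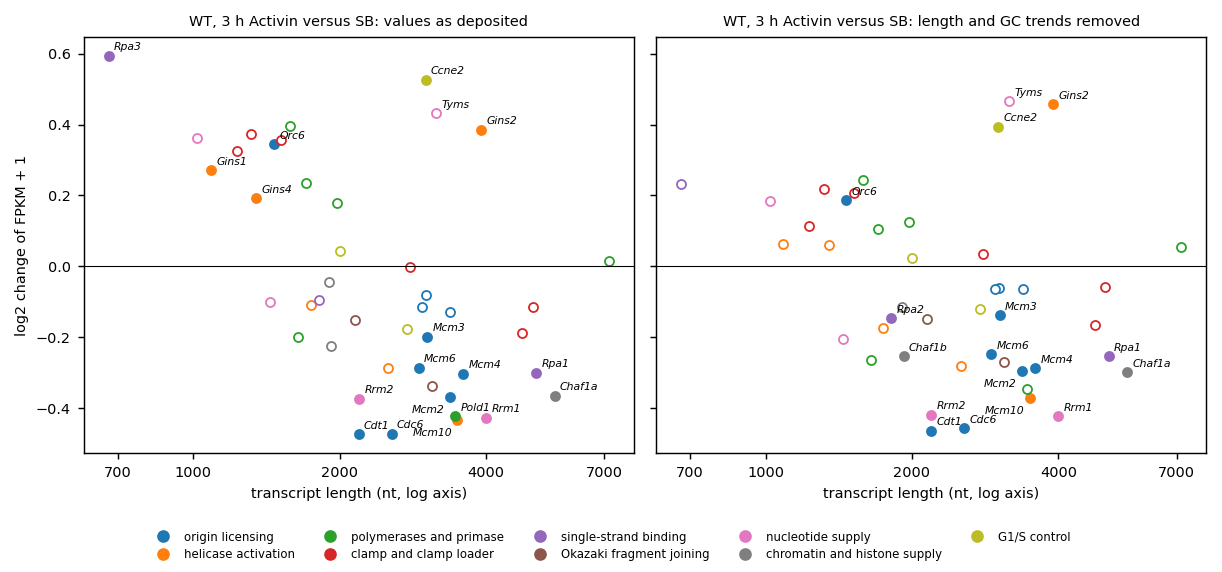
Change of each member in WT cells at 3 h on the log2(FPKM + 1) scale against its transcript length in nucleotides (log axis), with values as deposited (left) and with length and GC trends removed (right); colours are roles and filled points passed the adjusted threshold. Rpa3, at 670 nt, moves from 0.59 to 0.23, while the group of Cdt1, Cdc6, Rrm1 and Mcm10 stays near −0.4.

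From 3 h to 6 h of Activin, no member was called in WT or null cells by limma, where 2.53% and 4.63% of all genes were called. In WT cells 1.22% of all genes were higher at 6 h and 1.31% lower, and in null cells 2.77% and 1.85%. An unadjusted p under 0.05 was found for 2 and 4 members, against 16.9% and 22.2% of all genes. Cdc6 lay 0.28 above its 3 h level in WT and 0.22 above it in null cells, with adjusted p of 0.263 and 0.299. With the line as a block, Ccne1, Orc1 and Pole2 were called higher and Mcm6 lower in null cells, and none in WT cells, where 13.4% and 6.64% of all genes were called. With length and GC trends removed as well, Mcm6, Prim1, Prim2 and Rfc5 were called lower in WT cells, and in null cells Mcm6 and Prim1 lower and Ccne1 higher, with 9.22% and 12.4% of all genes called.

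No member differed between null and WT cells at the adjusted threshold of limma, in SB, at 3 h, at 6 h or on the means of the lines. Of all genes 0.312%, 0.382%, 0.21% and 0% were called. Those higher in null cells made up 0.249%, 0.132% and 0.148% over the 3 treatments in that order, and those lower 0.0623%, 0.249% and 0.0623%. An unadjusted p under 0.05 was found for 10, 6, 5 and 7 members, against 14.9%, 12.9%, 14.7% and 13.3% of all genes. The lowest adjusted p of a member in SB was that of Orc6, with 147 and 173 FPKM in null lines 25 and 39 against 119 and 126 in WT, a difference of 0.38 ± 0.08 (adjusted p = 0.116). In the same order of SB, 3 h and 6 h, Ccne2 lay 0.39, 0.46 and 0.46 higher in null cells (adjusted p of 0.213, 0.153 and 0.169), and 0.44 on line means (adjusted p = 0.227). Lig1 and Rrm1 lay lower in null cells on line means, by −0.37 and −0.23, with adjusted p of 0.317 and 0.327.

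The null lines were not alike in the members named below, which are examples. Summed FPKM in SB differed too, at 722232 in line 39 and 604602 in line 25. How far these lines differed over all genes was not counted. The differences are therefore not shown to be particular to replication genes. In SB, line 39 exceeded line 25 in Rpa3 (270 against 191 FPKM), Prim1 (173 against 125), Rfc3 (223 against 170), Tyms (315 against 241) and Pcna (197 against 156). Line 25 exceeded line 39 in Mcm2 (59.1 against 48.6), Lig1 (63.7 against 50.5), Rrm1 (60.8 against 51.6), Pold2 (46.6 against 37.8) and Rpa1 (87.1 against 77.7). The summed level of the 8 trophoblast markers was 156.6 FPKM in line 25 and 114.5 in line 39 in SB, against 85.4 and 86.3 in WT. Krt18 (96.9 and 75.7 FPKM in lines 25 and 39) and Krt8 (41.4 and 23.8) held most of the null sums. The part of this sum in the differences between the lines was not tested. Leaving out line 25 or line 39 left 1 null line to set against the WT lines. The spread in those fits came from the WT lines alone, with no estimate of how far null lines differ. Such fits therefore cannot tell a difference of genotype from one of line. Ribosomal protein genes held 17.6% of summed FPKM in line 39 and 16.1% in line 25 in SB, and the part of this in the difference between the lines was not tested. Across genes, rho between the null minus WT difference in SB and transcript length was −0.59 for members and −0.30 for all genes.

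The response itself was not shown to differ by genotype. No member was called for the difference between null and WT in the change at 3 h or at 6 h, by limma with or without the line as a block. Of all genes 0% were called without the block, and with it 0.0234% at 3 h and 0% at 6 h. The number with an unadjusted p under 0.05 was 1 at 3 h and 0 at 6 h, against 5.1% and 2.99% of all genes. These differences lay between −0.22 and 0.14 at 3 h and between −0.22 and 0.16 at 6 h, with a median standard error of 0.12 at either time. At 3 h, 6 members were called in both genotypes (Ccne2, Cdc6, Mcm10, Rpa1, Rrm1 and Rrm2), which is 33.3% of the WT calls and 75% of the null calls. At 6 h, 10 were (Ccne2, Chaf1b, Mcm10, Mcm2, Mcm3, Mcm4, Mcm6, Pold1, Rpa1 and Rrm2), 66.7% of the WT calls and 90.9% of the null calls. All of these had the same direction in both genotypes. Of all genes 22.5% and 13.6% were called at 3 h (WT and null), and 15.9% and 13.4% at 6 h. How far the calls of all genes overlapped was not counted, so the shares of shared calls have no value beside them.

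Other genes of the same processes were counted in the same way. Of all genes, 9.85% and 6.34% were called lower in WT cells at 3 h and 6 h, and 7.14% and 5.54% in null cells. Those called higher were 12.6% and 9.6% in WT cells and 6.49% and 7.86% in null cells. Of 38 further genes of the replication machinery, 16 fell and 4 rose in WT cells at 3 h and 8 fell and 2 rose at 6 h; in null cells 12 fell and 1 rose at 3 h and 9 fell and 1 rose at 6 h. In WT cells at 3 h the largest of these were Gmnn, the inhibitor of Cdt1, at 0.61, Pole3, a small subunit of polymerase epsilon, at 0.54, Uhrf1, which reads hemimethylated DNA behind the fork, at −0.47, and Atad5, which unloads the clamp, at −0.46. Of 24 further genes of nucleotide synthesis, 4 fell and 5 rose in WT cells at 3 h, with Dctpp1 at 0.49, Dtymk at 0.47 and Mthfd2 at −0.36. At 6 h in WT cells 2 of them fell and 1 rose, and in null cells 2 fell and 1 rose at 3 h and 1 fell and 0 rose at 6 h. These last counts are small and not far from the shares of all genes.

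Of 30 regulators of the G1 to S transition, 8 fell and 2 rose in WT cells at 3 h. The shares of all genes just given stand beside these lists too. The largest were E2f2 at −0.88, the kinase inhibitor Cdkn1a at 0.64, Mycn at −0.55 and Myc at 0.51. At 6 h in WT cells 6 fell and 2 rose, with Myc at 0.79, Mybl2 at −0.77, Cdkn1a at 0.74 and Ccnd3, a D-type cyclin, at −0.58. In null cells 3 fell and 1 rose at 3 h, and 4 fell and 2 rose at 6 h, with Mybl2 at −0.75 and Myc at 0.65 at 6 h. Of 22 mitosis genes none rose in any of the 4 comparisons, and 9 and 8 fell in WT and 10 and 7 in null cells (3 h and 6 h), led in WT cells at 3 h by Plk1 at −0.48 and Aurkb and Incenp at −0.47 each. Of 19 genes of replication stress and repair none rose, and 7 and 3 fell in WT and 5 and 3 in null cells, with Hus1 at −0.44 and Msh6 at −0.42 in WT cells at 3 h. Top2a stands in both the replication and the mitosis list.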

How the data were processed

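The study measured poly(A) RNA in 12 libraries. The authors deposited one table of FPKM per locus and library with a status flag beside each value, per the file headers. The genome build is mm10, per the submitters' processing notes; how reads were aligned, quantified and assigned to a strand is not given in these sources. Overlapping and antisense genes can therefore share reads. The table held 17446 loci. Unnamed loci (2666) were left out, and for each name the locus with the highest mean FPKM was kept, giving 13528 genes; 1252 further loci were left out. Values flagged FAIL (71) were taken as missing.

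The main test was limma (version 3.58.1, R version 4.3.3) on log2(FPKM + 1). The model had 1 term per group, which left 6 residual degrees of freedom, and its prior variance followed mean expression. Genes had to reach 1 FPKM in 2 or more libraries. P-values are two-sided and were adjusted by the Benjamini-Hochberg method across the 12838 genes tested, separately in each of 12 comparisons, with a threshold of 0.05. The log2(FPKM + 1) scale understates changes of low genes. All adjusted p come from this fit unless another is named.

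Libraries with the same line number come from the same cell line, so the line is a pairing block within a genotype. Deviations from group means correlated between the libraries of a line at 0.0166 to 0.0536 in WT and at 0.245 to 0.349 in null lines. Alternatives were a pseudocount of 0.1, no filter, median-ratio scaling, quantile normalization, only the groups compared, the block, and each line left out. Removal of length and GC trends (natural splines with 4 degrees of freedom), the same with the block, and keeping failed values were chosen after seeing the data. Lengths and GC came from GENCODE M21 for 99% of named genes.

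Members called are named in each comparison, with values of other members of the same role; of other lists at most 4 called genes with the largest change are named. A gene that this rule would name is not reported here. Members and lists were chosen with earlier results of these data known. Sequences are from RefSeq (GRCm38.p6), and motif letters were searched in the 250 bases before each start.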

Additional observations from a re-analysis of the deposited data

How the results depend on the processing

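Results are the number of members called in each comparison and each member called in the report. Under the cell line as a replicate block 31, 30, 31 and 31 members were called in WT cells at 3 h and 6 h and null cells at 3 h and 6 h, and 4 between 3 h and 6 h in null cells; no call of the report was lost. With length and GC trends removed and the block these counts were 30, 27, 27, 24 and 3, with 4 between 3 h and 6 h in WT cells, and without the block 1 between 3 h and 6 h in null cells. With only the groups compared 25 were called in WT cells at 6 h and 0 in null cells at either time. Quantile normalization gave 17 in null cells at 6 h and turned Gins4 to a log2 change of −0.0683 and −0.0205 in WT cells at 3 h and 6 h. Leaving out 1 line gave 0 to 29 and 0 to 28 in WT cells at 3 h and 6 h, 0 to 19 and 0 to 18 in null cells, and between genotypes 0 to 16 in SB, 0 to 1 at 3 h, 0 to 10 at 6 h and 0 to 11 on line means. The cause of these shifts was not tested. Leaving out a line left fewer samples, and counts then fell in some comparisons and rose in others. It left 1 library in each group of that genotype, so the spread came from the other genotype alone. Counts between genotypes from those fits cannot tell genotype from line. A pseudocount of 0.1, no filter, median-ratio scaling and failed values kept as deposited moved no count of called members by over 1.5 times. Of the single members called, 511 values under alternatives kept direction and side of the threshold, 162 lost the threshold and 2 changed sign. The number of lines and the unknown read depth limit the precision of all values.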
